A study of Rattus norvegicus with 2 samples.

Results

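Alpha-defensins are short cationic peptides that disrupt microbial membranes. The enteric forms are stored in the granules of Paneth cells at the base of small intestinal crypts, and other members of the family fill the granules of rat neutrophils. Reg4 is a secreted C-type lectin, known in the mouse colon from deep crypt secretory cells and from enteroendocrine cells. The 6 genes described here are the alpha-defensin genes Defa8 (ENSRNOG00000046075), Defa9 (ENSRNOG00000046453), Defa24 (ENSRNOG00000030524) and Defa6 (ENSRNOG00000029522), the related Defal1 (ENSRNOG00000029462), which encodes the defensin-like peptide rattusin, and Reg4 (ENSRNOG00000019046). They are 6 of the 28116 gene symbols counted, each with a single identifier, and were matched by symbol. They were selected on their UMIs per cell and in both libraries, so every level and every difference between the libraries given for them is a description.

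Wild-type fetal rat colon of stage E19.5 was dissociated and sequenced as single cells in 1 library of the maternal obesity group (replicate 2) and 1 library of the control group (replicate 1). The labels record neither how many fetuses were pooled nor their sex or the part of the colon. The deposited matrices held 9714 barcodes with 120811946 UMIs (unique molecular identifiers, each standing for 1 captured transcript) in maternal obesity and 8903 barcodes with 103013814 UMIs in control. After barcodes with fewer than 500 genes, with over 20% mitochondrial UMIs or called as doublets were removed, there remained 7102 maternal obesity and 6819 control cells. Epithelial-like cells numbered 1308 (18.4% of the maternal obesity cells) and 2642 (38.7% of the control cells), with medians of 24049 and 16360 UMIs per cell. With 1 library per group there is no replicate check and no test between the groups. All intervals are exact 95% intervals for counting error only, and differences of library preparation and of maternal group cannot be told apart. The libraries shared 130 barcodes, among them those of 3 of 62 maternal obesity and 0 of 52 control cells with at least 3 alpha-defensin UMIs.

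Most transcripts of the 6 genes lay in the epithelium. Epithelial-like cells held 91.1% of the alpha-defensin UMIs of the maternal obesity library and 97.0% of those of the control library, and 94.1% and 89.1% of the Reg4 UMIs. The lowest share was that of Defal1 in maternal obesity, at 76.9%, where 164 of 856 UMIs were in a single mesothelium-like cell described further on. Scaled to the UMIs of the epithelial-like cells (CPM, the gene's UMIs per 1000000), the 5 alpha-defensins together stood at 166 CPM in maternal obesity and 57.6 CPM in control, a ratio of 2.88 (2.75 to 3.00). With the 9 clusters that held at least 30 cells in each library weighted equally, the mean log2 ratio was 0.30, with 6 of 9 clusters higher in maternal obesity. Of those 6, E2, E6 and E10 had few UMIs (4, 10 and 3 in maternal obesity, 3, 5 and 4 in control). Their CPM lay below the fibroblast-like levels given below. The log2 ratio ran from -7.33 in E3 to 6.69 in E12. A single cell held 282 of the 285 control UMIs in E3, and another 662 of the 844 maternal obesity UMIs in E12. Reg4 stood at 21.2 CPM in maternal obesity and 1.55 CPM in control, a ratio of 13.6 (10.9 to 17.3). With 0.5 UMI added to each count, the mean log2 ratio of Reg4 over the 9 clusters was 2.27. That mean is partly set by the cluster totals, since clusters E2, E7 and E10 had 0 Reg4 UMIs in both libraries. Reg4 CPM was higher in maternal obesity in E0, E1, E6 and E12, and lower in E3 and E14. In fibroblast-like cells, which should lack these genes, the alpha-defensins were at 4.30 and 2.21 CPM and no cell had 3 or more of their UMIs. In enteric glia-like cells they were at 7.55 CPM in maternal obesity and 0.402 CPM in control.

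The 5 defensins differed in abundance by more than an order of magnitude and kept nearly the same rank in both libraries. Defa8 had 3064 UMIs in 86 maternal obesity cells and 1022 UMIs in 71 control cells (78.9 and 19.3 CPM, ratio 4.08, 3.80 to 4.38). Defa9 had 2198 UMIs in 70 maternal obesity cells and 1247 UMIs in 59 control cells (56.6 and 23.6 CPM, ratio 2.40, 2.24 to 2.57). The order of these most abundant members was reversed between the libraries, with 1.39 Defa8 UMIs per Defa9 UMI in maternal obesity (1.32 to 1.47) and 0.820 in control (0.754 to 0.891). Without the cell richest in alpha-defensins the ratios were 1.53 and 0.873. Among cells with at least 20 alpha-defensin UMIs, Defa8 exceeded Defa9 in 24 of 34 maternal obesity cells and in 10 of 23 control cells.

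The less abundant members followed in the same order. Defal1 had 658 UMIs in 27 maternal obesity cells and 521 UMIs in 36 control cells (16.9 and 9.86 CPM, ratio 1.72, 1.53 to 1.93). Defa6 had 384 UMIs in 30 maternal obesity cells and 248 UMIs in 20 control cells (9.89 and 4.69 CPM, ratio 2.11, 1.79 to 2.48). Defa24 stood apart, with 130 UMIs in 24 maternal obesity cells and 5 UMIs in 2 control cells (3.35 and 0.0946 CPM, ratio 35.4, 14.8 to 111). Of its UMIs, 33.1% lay in 1 maternal obesity cell and 80.0% in 1 control cell, and 14 of the 24 maternal obesity cells held a single UMI. Of the 6 genes, 5 were at least 2-fold higher in maternal obesity, where 4.83% of 13384 genes with at least 20 UMIs were. That contrast chose the genes, so nothing follows from the count. The counting method for reads that match several of these similar genes is not given, so the split between the members is uncertain.

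**Figure D1:**
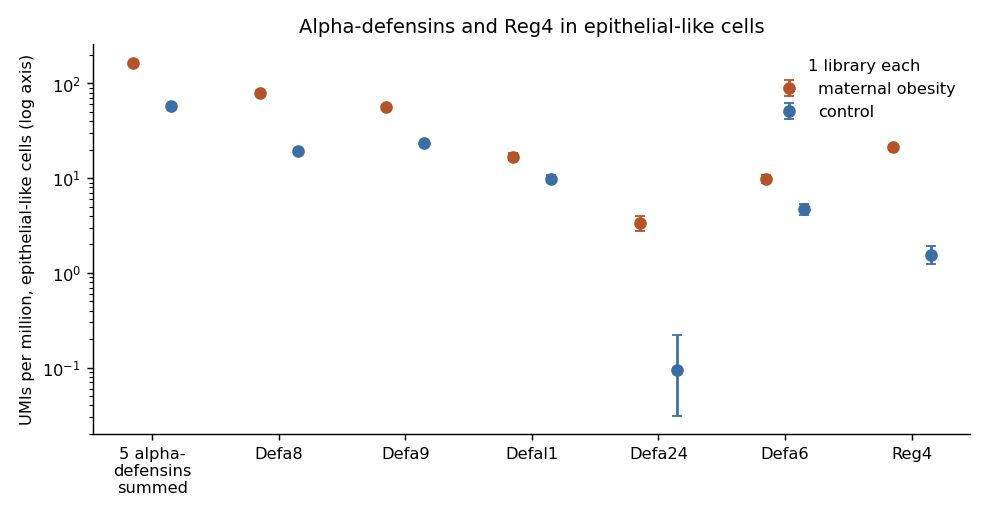
UMIs per 1000000 in epithelial-like cells (log axis) for the 5 alpha-defensins summed, each of them and Reg4, with 1 library per group and bars for the exact 95% counting interval. Every gene sits higher in maternal obesity, from 1.72-fold for Defal1 to 35.4-fold for Defa24.

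A small number of cells carried these sums. Alpha-defensin UMIs were seen in 128 of 1308 maternal obesity cells and in 102 of 2642 control cells, and the 10 richest cells held 67.6% and 73.8% of them. The richest maternal obesity cell had 775 alpha-defensin UMIs among 65058 (12.0% of all alpha-defensin UMIs), and the richest control cell had 413 among 12195 (13.6%). Among the 15 richest cells of each library, alpha-defensins made up the most in a maternal obesity cell with 5453 UMIs, at 6.33% of its transcripts. A single alpha-defensin UMI was seen in 58 maternal obesity and 39 control cells. The top cell held a larger share of Defal1, Defa6 and Defa24 than of Defa8 and Defa9. The top cell held 12.7% of Defa8 UMIs in maternal obesity and 12.9% in control, 18.2% of Defa9 UMIs in both, 28.0% and 34.0% of Defal1 UMIs, and 23.7% and 37.1% of Defa6 UMIs. Reg4 was spread more evenly in maternal obesity, where its top cell held 10.1% of 822 UMIs, than in control, where it held 37.8% of 82 UMIs.

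Most alpha-defensin UMIs came from cells that expressed several members at once. In maternal obesity, 15 cells showed 4 or 5 of the genes, 11 with 4 (44.0% of all alpha-defensin UMIs) and 4 with all 5 (30.5%). In control, 9 cells showed 4 (28.8%) and 1 showed all 5 (9.27%), while 15 cells with 3 held 47.3%. Cells with 1 member were the most frequent, at 70 and 52, and held 1.90% and 2.92% of the UMIs. Depth differed as well, with median total UMIs of 22389, 30688.5, 43296, 27742 and 53878.5 for 1 to 5 members in maternal obesity. In control these medians were 17464.5, 30954, 44937, 37169 and 50022. The part of depth in the number of members seen was not tested. Cells with 1 member were 70 of 1308 in maternal obesity and 52 of 2642 in control. Of fibroblast-like cells, 3.86% and 1.76% had any alpha-defensin UMI. How many cells with 1 member carried only such background was not tested. Defa9 and Defa8 shared most cells, since 74.3% of Defa9-positive maternal obesity cells and 78.0% of Defa9-positive control cells also had Defa8.

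The mixture nevertheless varied from cell to cell. Among the 34 maternal obesity and 23 control cells with at least 20 alpha-defensin UMIs, Defa8 led in 23 and 7, Defa9 in 9 and 10, Defal1 in 1 and 4, and Defa6 in 1 and 2. Defa24 led in none of them. Defa6 was absent from 15 of the 34 and 12 of the 23, yet it dominated a few, with 91 of 114 alpha-defensin UMIs in a maternal obesity cell and 92 of 143 and 47 of 50 in control cells. Defal1 gave 184 of 634 UMIs in a maternal obesity cell and 177 of 368 in a control cell. Such cells had few Defa9 UMIs when Defa6 led, with 1 in the maternal obesity cell and 6 and 0 in the control cells.

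**Figure D2:**
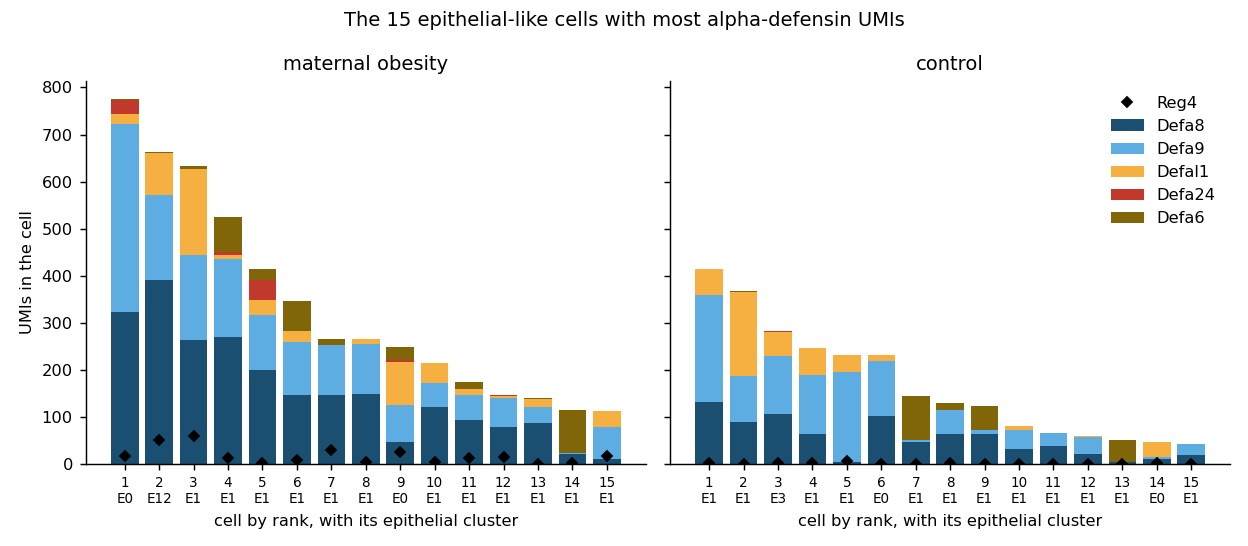
UMIs in the 15 epithelial-like cells with most alpha-defensin UMIs in each library, stacked by gene, with Reg4 as diamonds and the epithelial cluster under each rank. Defa8 and Defa9 make up most bars, Defa6 makes up 91 of 114 UMIs in the maternal obesity cell of rank 14 and 92 of 143 in the control cell of rank 7, and Reg4 reaches 58 UMIs in the maternal obesity cells shown and 6 in the control cells shown.

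In the RefSeq annotation the 5 defensin genes lie side by side on chromosome 16, in the order Defa24, Defal1, Defa6, Defa8 and Defa9, with only pseudogenes and Defa7 between them. Defa5 precedes them, and Np4, Defa10, Defa11 and RatNP-3b follow. These flanking genes, which include the rat neutrophil defensins, had a single UMI (of Np4, in control) in epithelial-like cells. Their UMIs lay in a few cells outside the epithelium. RatNP-3b had 0 UMIs in maternal obesity and 3497 in control, of which 3428 were in 1 neutrophil or granulocyte-like cell. Np4 had 30 UMIs in maternal obesity and 2956 in control, with 27 of the 30 in macrophage-like cells and 2919 of the control UMIs in 1 neutrophil or granulocyte-like cell. Defa5 had 137 and 2783 UMIs, of which all 137 and 1032 lay in an unnamed cluster outside the epithelium and 1749 in the neutrophil or granulocyte-like cluster of control. Defa11 had 0 and 69 UMIs, all 69 in 1 such cell. Conversely, the 5 enteric members had 1 UMI in 33 maternal obesity and 0 UMIs in 49 control neutrophil or granulocyte-like cells.

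Promoter sequences are shown for Defa9 (epithelial here), its chromosomal neighbour Defa11 (granulocytic here) and Reg4, since they are the members and neighbour found in the RefSeq table of build GRCr8. Each is the 250 bases before the annotated start, 5′ to 3′ on the gene's strand. Capitals mark matches, on either strand, to a TATA box (TATAAA), a TCF/LEF motif (CTTTGAT), a CDX motif (TTTATNG) and an E-box (CAGCTG), motifs which do not overlap here and were picked after the sequences had been seen.
Defa9, chr16:77184018-77184267, plus strand: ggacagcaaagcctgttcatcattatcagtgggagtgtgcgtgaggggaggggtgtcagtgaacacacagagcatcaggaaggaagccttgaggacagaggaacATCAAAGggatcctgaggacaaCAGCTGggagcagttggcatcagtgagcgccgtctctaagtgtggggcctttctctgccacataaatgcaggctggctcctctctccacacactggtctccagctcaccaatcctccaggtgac
Defa11, chr16:77238042-77238291, minus strand: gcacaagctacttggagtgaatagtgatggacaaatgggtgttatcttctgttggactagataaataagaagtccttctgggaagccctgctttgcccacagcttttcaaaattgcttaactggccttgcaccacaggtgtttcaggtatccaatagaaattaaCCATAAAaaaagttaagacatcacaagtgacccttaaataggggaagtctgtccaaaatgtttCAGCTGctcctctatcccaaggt
Reg4, chr2:188507434-188507683, plus strand: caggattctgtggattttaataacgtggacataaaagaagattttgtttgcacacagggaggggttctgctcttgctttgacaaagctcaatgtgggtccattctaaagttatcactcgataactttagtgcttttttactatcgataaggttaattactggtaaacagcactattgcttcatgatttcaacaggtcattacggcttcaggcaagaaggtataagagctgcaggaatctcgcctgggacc
The Defa9 window holds the TCF/LEF letters from base -146 to -140 and the E-box from -124 to -119, counted back from the start. The Defa11 window holds the CDX letters and an E-box, and the Reg4 window none of the motifs. Of 33469 rat promoters of this length, 3.15% hold the TCF/LEF letters, 10.1% the CDX letters, 12.0% the E-box and 12.9% the TATA box. These matches describe letters only and show no binding.

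To see which epithelial cells carried the genes, the epithelial-like cells were clustered with all defensins and Reg4 left out. One cluster, E1, took most alpha-defensin UMIs in both libraries. It held 113 maternal obesity cells (8.64% of epithelial-like cells) and 179 control cells (6.78%), with 62.2% and 76.8% of the alpha-defensin UMIs. Its leading genes other than the 6 were the insulin-like growth factor binding protein-like gene Igfbpl1, the sialyltransferase gene St3gal1, Atoh1, the master transcription factor of secretory cells, Selenom and the uroguanylin gene Guca2b. It met no cell type name. In E1 the alpha-defensins stood at 1358 CPM in maternal obesity and 487 CPM in control (ratio 2.79, 2.65 to 2.94). Red blood cell genes differed in the same direction, with 3 of 3 measured at least 2-fold higher in E1 in maternal obesity (3.80% of all genes were) and Hba-a1 at 173 and 14.4 CPM. Over the whole epithelium 5 of 5 were higher. Within each library they were lower in the alpha-defensin cells described further on than in other epithelial-like cells, in 5 of 5 measured in maternal obesity and 3 of 3 in control. Their part in the difference was not tested. At least 3 alpha-defensin UMIs were seen in 38 of 113 maternal obesity cells (33.6%) and in 39 of 179 control cells (21.8%) of E1, at median depths of 20806 and 21036 UMIs.

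Within E1 each member was set between the libraries in turn, with intervals that take UMIs as independent although few cells hold them. Defa8 was at 656 CPM in maternal obesity and 154 CPM in control (ratio 4.27, 3.92 to 4.66), and Defal1 at 127 and 83.9 CPM (1.51, 1.31 to 1.75). A single cell held 184 of the 374 Defal1 UMIs in maternal obesity and another 177 of the 403 in control. Defa9 (447 and 199 CPM, ratio 2.25, 2.07 to 2.45) and Defa6 (108 and 50.4 CPM, ratio 2.15, 1.81 to 2.55) had ratios between these. Defa24 had 59 UMIs in E1 in maternal obesity, 43 of them in 1 cell, and 0 in control. Against a floor of 3 counts over the cluster it was at least 32.1-fold higher, and at least 8.82-fold higher without that cell.

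Outside E1 a few cells set the level of whole clusters. Cluster E0, led by the genes of the peptidase Enpep and the urea cycle enzymes Otc and Cps1, held 24.0% of the alpha-defensin UMIs of maternal obesity and 10.2% of those of control, and its top cells had 775 and 230 UMIs. Cluster E12, led by Nrgn, with Retnlb and Mptx1 among its leading genes, held 13.1% and 1.08%. In maternal obesity 662 of its 844 UMIs were in 1 cell. In control, 282 of the 285 UMIs in E3 were in 1 cell. The goblet-like clusters E14 and E17 had 2 and 13 UMIs in maternal obesity and 17 and 5 in control, and the enteroendocrine-like cluster E11 had 1 in each. The goblet-like clusters made up 2.29% and 0.765% of maternal obesity and 9.77% and 3.52% of control epithelial-like cells. Outside the epithelium 1 maternal obesity cell in a mesothelium-like cluster had 331 alpha-defensin UMIs among 77061, with 121 UMIs of the epithelial gene Epcam and a doublet score of 0.277.

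**Figure D3:**
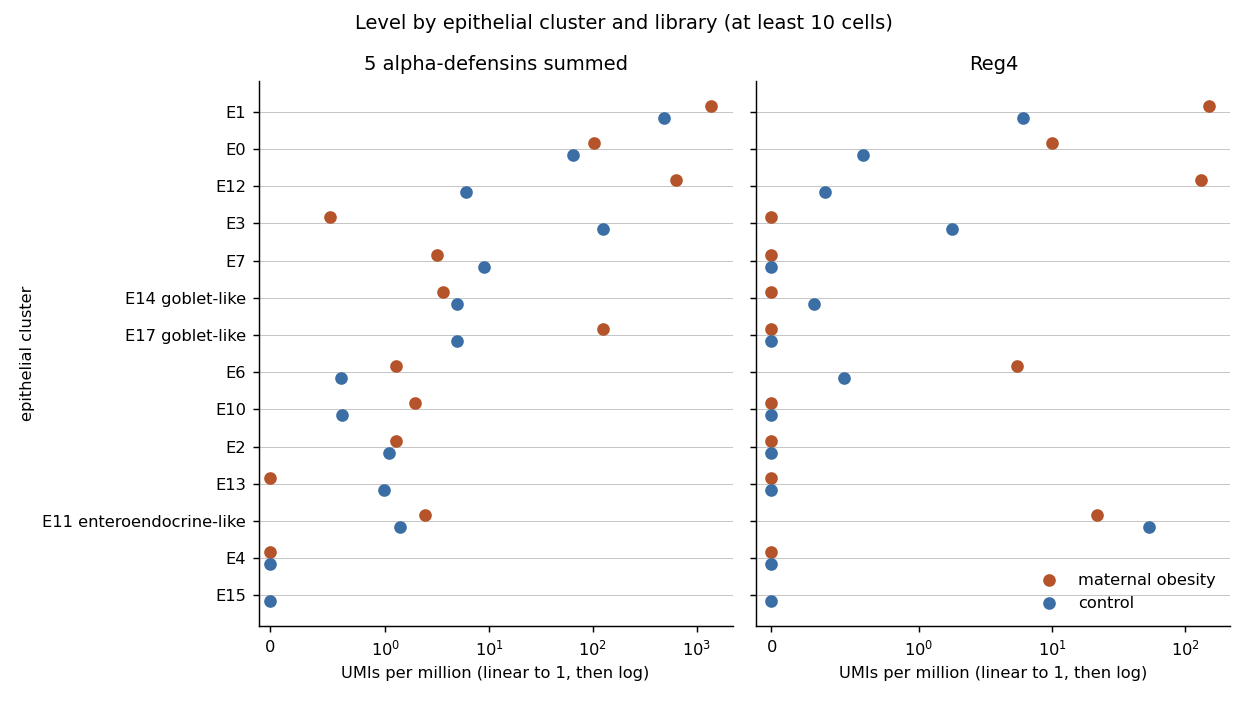
UMIs per 1000000 (linear to 1, then log) of the 5 alpha-defensins summed and of Reg4 in each epithelial cluster, 1 point per library with at least 10 cells. E1 is highest for the alpha-defensins in both libraries (1358 CPM in maternal obesity and 487 CPM in control), and Reg4 is highest in E1 in maternal obesity and in the enteroendocrine-like E11 in control.

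Reg4 was found in E1 in both libraries, also in E12, E0 and E6 in maternal obesity, and also in 1 rich enteroendocrine-like cell in control. E1 held 53.6% of the Reg4 UMIs of maternal obesity and 35.4% of those of control, at 149.7 and 6.04 CPM (ratio 24.8, 17.0 to 37.4), and 47.8% and 8.94% of its cells had a Reg4 UMI. E12 held a further 21.5% of the maternal obesity UMIs. Of the 822 maternal obesity UMIs, E0 had 152, with 25 in 1 cell, and E6 had 43, with 22 in 1 cell. In control 47.6% of the Reg4 UMIs were in the enteroendocrine-like cluster E11, where 31 of 39 were in 1 cell, with 883 UMIs of Chga and 1059 of Chgb, the chromogranin genes of hormone granules. Without the richest Reg4 cell of each library E1 held 59.7% of the Reg4 UMIs in maternal obesity and 56.9% in control. In E11 Reg4 had 9 UMIs in maternal obesity, 8 of them in 1 cell, and 39 in control (21.6 and 53.7 CPM). Without those top cells E11 was at 2.42 and 11.6 CPM. Of cells with at least 3 alpha-defensin UMIs, 30 of 62 in maternal obesity (48.4%) and 1 of 52 in control (1.92%) also had at least 3 Reg4 UMIs. Within E1 these were 20 of 38 and 1 of 39. Only 7 control cells had at least 3 Reg4 UMIs. Taken the other way, 48 of 101 maternal obesity cells with any Reg4 UMI (47.5%) and 10 of 29 such control cells (34.5%) had an alpha-defensin UMI. The richest Reg4 cells of maternal obesity were nevertheless mixed, since the cells with 83, 58 and 50 Reg4 UMIs had 58, 634 and 662 alpha-defensin UMIs, and the next, with 32 and 31, had none.

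The shares of positive cells differed in the same direction when depth was made equal. With every cell thinned to 3000 UMIs, which left out 58 maternal obesity and 186 control cells, an alpha-defensin UMI was seen in 4.16% of maternal obesity and 1.91% of control epithelial-like cells (9.79% and 3.86% without thinning). In fibroblast-like cells, of median depths 7884.5 and 7100 UMIs, the thinned shares were 1.09% and 0.641% (3.86% and 1.76% without thinning). In smooth muscle-like cells, of median depths 11474 and 10316 UMIs, they were 1.65% and 0.747% (5.58% and 1.66% without thinning). A Reg4 UMI was seen in 3.20% and 0.122% of thinned epithelial-like cells (7.72% and 1.10% without thinning), and in 0.136% and 0% of fibroblast-like cells, where 0 of 468 control cells allow a share with a UMI of up to 0.641% (3 counts of the total). The thinned control share of Reg4 in epithelial-like cells, 3 cells, lies below that limit.

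To describe the cells themselves, cells with at least 3 alpha-defensin UMIs (62 in maternal obesity and 52 in control) were set against all other epithelial-like cells of their library. A further 66 and 50 cells had 1 or 2 UMIs and counted among the others. The alpha-defensin cells were deeper, with medians of 32476 and 23718 UMIs in alpha-defensin and other cells in maternal obesity, and 32324.5 and 16259.5 in control. High doublet scores were found in 9 of the 62 maternal obesity cells and 17 of the 52 control cells, against 134 of 1308 and 216 of 2642 epithelial-like cells in all. The part of depth and doublets in the contrasts was not tested. The secretory regulator gene Atoh1 was at 168 CPM in the alpha-defensin cells and 22.4 CPM in the others in maternal obesity (7.51-fold, 6.67 to 8.46), and at 131 and 48.0 CPM in control (2.73-fold, 2.38 to 3.12). St3gal1 was 8.09-fold higher in maternal obesity and 14.4-fold higher in control, and Igfbpl1 6.70-fold and 10.3-fold higher. The glycosyltransferase gene B3gnt6 was 11.3-fold and 2.72-fold higher, Nxpe1 16.3-fold and 5.93-fold, the signalling regulator gene Rgs16 7.38-fold and 2.89-fold, and the claudin gene Cldn15 3.22-fold and 3.59-fold. Tm6sf1, Guca2b and Adap2 completed the 10 genes ranked by the lower of the libraries' folds, at 9.13, 2.80 and 2.57 in maternal obesity and 3.50, 2.71 and 3.51 in control.

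More goblet cell genes were high in the alpha-defensin cells of maternal obesity than in those of control. Of 14 measured, 10 were at least 2-fold higher and 1 lower in the alpha-defensin cells of maternal obesity (median log2 1.57), where 3.81% and 7.00% of all genes were. In control 1 was higher and 3 lower (median log2 0.12), where 4.02% and 10.0% of all genes were. The protein disulfide isomerase gene Agr2 was at 5196 CPM in alpha-defensin cells and 1484 CPM in others in maternal obesity, and at 3763 and 3337 CPM in control. The trefoil peptide gene Tff3 was at 4071 and 1127 CPM in maternal obesity, and at 2636 and 2425 CPM in control. The mucus protein gene Fcgbp was at 382 and 100.5 CPM, and at 195 and 163 CPM. Retnlb, a goblet cell peptide gene, was lower in both libraries, at 9.44 and 95.3 CPM in maternal obesity and at 24.4 and 216 CPM in control. Over the whole epithelium goblet genes were lower in the maternal obesity library, with 1 of 14 at least 2-fold higher and 9 lower than in control (4.83% and 5.94% of all genes). The part of this difference in the contrast within each library was not tested.

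Set against the other cells of E1 instead, a contrast added after the data were seen, the goblet list lay close to the others. Its median log2 was 0.11 in maternal obesity and -0.03 in control, with 0 of 13 higher and 3 lower, and 1 higher and 3 lower (1.95% and 1.74% of all genes in maternal obesity, 1.32% and 2.05% in control). The lower genes included Clca1, a mucus-processing protein gene (35.3 CPM in alpha-defensin cells and 212 CPM in other E1 cells in maternal obesity, 12.7 and 42.7 CPM in control), and Retnlb (18.5 and 106 CPM, and 0.792 and 20.9 CPM). The third was Zg16, a lectin of mucus granules, in maternal obesity (14.99 and 39.7 CPM) and Klk1 in control (8.71 and 31.9 CPM). Zg16 was higher in control (15.8 and 6.50 CPM). B3gnt6 (3.97-fold and 2.66-fold) and St3gal1 (2.27-fold and 2.77-fold) stayed higher in both libraries. The immediate early gene Nr4a1 was at 457 and 163 CPM in maternal obesity, and at 175 and 100.3 CPM in control.

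Several Paneth cell genes other than the defensins were sparse, while others on the list were not. Of 12 measured in maternal obesity 6 were at least 2-fold higher in the alpha-defensin cells and 0 lower, beside 3.81% and 7.00% of all genes. Of 10 in control 0 were higher and 5 lower, beside 4.02% and 10.0% of all genes. The lysozyme gene Lyz2 had 15 UMIs in the alpha-defensin cells of maternal obesity (5.90 CPM, and 1.49 CPM in the other cells) and 0 UMIs in those of control (1.06 CPM in the others). Itln1, an intelectin gene shared with goblet cells, had 64 and 0 UMIs, and the phospholipase gene Pla2g2a 8 and 0. The metalloprotease gene Mmp7, which processes pro-alpha-defensins in mice, had 2 and 0 UMIs. Sox9, a transcription factor gene that Paneth cells need, was at 188 and 123 CPM in maternal obesity and at 168 and 118 CPM in control. In E1 as a whole, the listed gene Cd24 was at 1387 CPM in maternal obesity and 873 CPM in control, and Kit at 49.9 and 37.7 CPM. Against the other cells of E1 the median log2 of the list was -0.17 in maternal obesity and -0.33 in control. Of the granule and secretory pathway genes, 2 of 14 were at least 2-fold higher in maternal obesity and 0 of 14 in control, with none lower. Of the other antimicrobial genes, 5 of 10 were higher and 1 lower in maternal obesity, and 2 and 7 of 10 in control. The same shares of all genes apply to both lists. The lipocalin gene Lcn2 was higher in both, at 177 and 48.0 CPM in maternal obesity and 184 and 69.1 CPM in control.

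**Figure D4:**
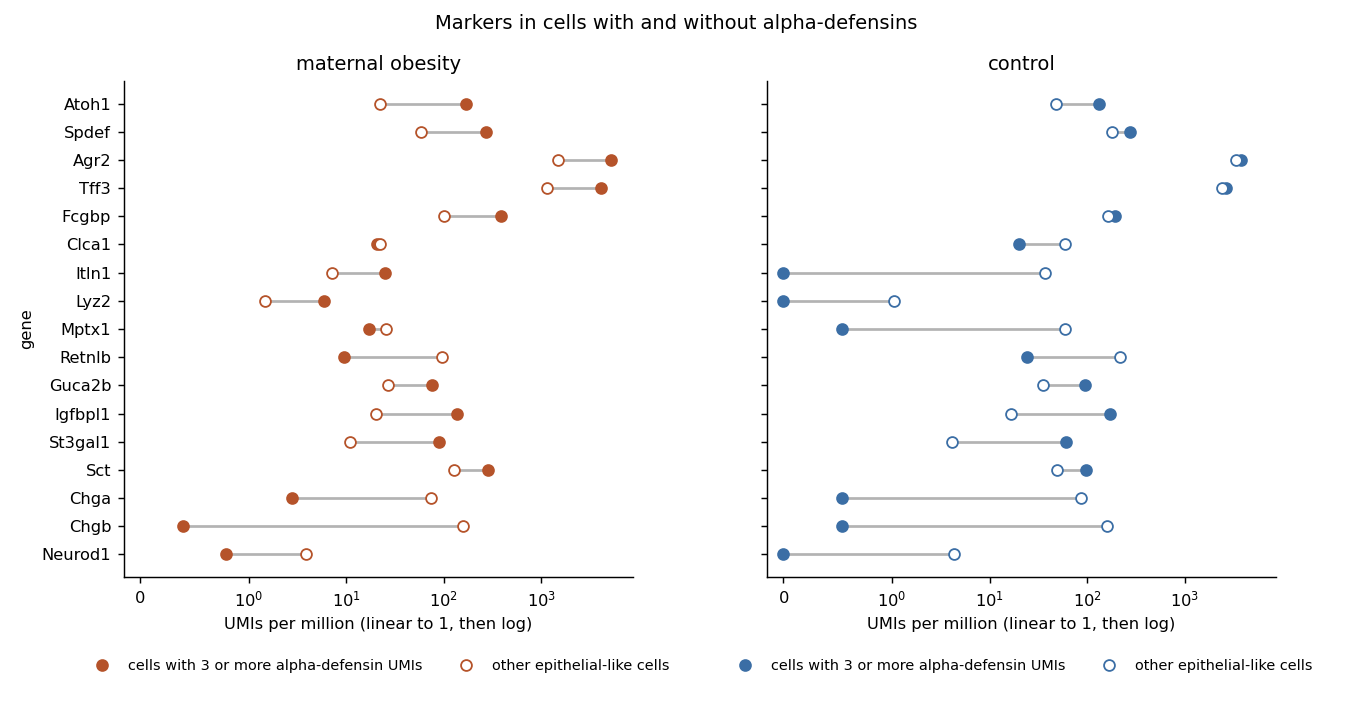
UMIs per 1000000 (linear to 1, then log) of marker genes in cells with at least 3 alpha-defensin UMIs (filled) and in other epithelial-like cells (open), for maternal obesity on the left and control on the right. Atoh1, Igfbpl1 and St3gal1 are higher in the filled points of both libraries, while Agr2 and Tff3 stand apart in maternal obesity and nearly coincide in control (3763 and 3337 CPM for Agr2).

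Enteroendocrine genes were low in the alpha-defensin cells, with 13 of 14 at least 2-fold lower in maternal obesity and 13 of 16 in control, where 7.00% and 10.0% of all genes were. Chgb was at 0.394 CPM in alpha-defensin cells and 156 CPM in others in maternal obesity, and at 0.542 and 158 CPM in control. The secretin gene Sct was the exception in maternal obesity, at 285 and 128 CPM, and was among the exceptions in control, at 97.0 and 49.4 CPM. The other cells include those of the enteroendocrine-like cluster E11. In E1 as a whole Chgb was similarly low, at 0.339 CPM in maternal obesity and 0.625 CPM in control. For Chgb the low level was therefore not particular to the alpha-defensin cells. Of the neutrophil markers, S100a8, S100a9, Mpo, Elane, Ngp and Camp had 0 UMIs in the alpha-defensin cells of either library and Ltf had 1 UMI in each, while Lcn2, which gut epithelium also expresses, was high as given above.

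Genes that mark positions along the gut differed as well. Over the whole epithelium 9 of 11 proximal gut genes were at least 2-fold higher in maternal obesity and 0 lower, and of 8 distal genes 2 were higher and 4 lower, beside 4.83% and 5.94% of all genes. In the alpha-defensin cells against the others, 2 of 10 proximal genes were higher in maternal obesity and 6 of 9 in control (3.81% and 4.02% of all genes), and 1 of 7 and 6 of 8 distal genes were lower (7.00% and 10.0%). Sftpd, the surfactant protein D gene, had 0 UMIs in the alpha-defensin cells of maternal obesity and 1 in those of control (20.1 and 180 CPM in the others). It was also sparse in E1 as a whole, with 0 UMIs in maternal obesity and 8 in control (0 and 1.67 CPM). Within E1 3 of 7 proximal genes and 0 of 5 distal genes were higher in maternal obesity, where 3.80% of all genes were. Whether the part of the gut sampled bears on the defensin difference was not tested.

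Reg4 cells shared many high genes with the alpha-defensin cells in maternal obesity, where 30 cells were in both sets, and were few in control. Cells with at least 3 Reg4 UMIs numbered 61 and 7. In maternal obesity 11 of 14 goblet genes were at least 2-fold higher and 1 lower in them (3.51% and 6.13% of all genes), with Tff3 at 5421 and 1008 CPM and Fcgbp at 508 and 89.4 CPM. Unlike the alpha-defensin cells (20.5 and 22.1 CPM), they were high in Clca1 (140 and 13.0 CPM, 10.8-fold, 9.38 to 12.3). Neurog3, the transcription factor gene that starts the enteroendocrine fate, was at 21.5 and 6.15 CPM in them and at 1.18 and 7.66 CPM in the alpha-defensin cells and their others. Of 8 measured deep crypt secretory genes 6 were higher, among them the Notch ligand gene Dll4 (13.5 and 3.27 CPM). In control 10 of 16 enteroendocrine genes were higher in the 7 Reg4 cells, beside 25.7% of all genes. Among those 7, the cells with 31 and 4 Reg4 UMIs and 1 with 3 lay in E11, with 883, 751 and 623 Chga UMIs. The control values pool these enteroendocrine-like cells with cells of other clusters. Sct was higher in Reg4 cells of both libraries, at 483 and 112 CPM in maternal obesity and at 2579 and 43.6 CPM in control. Other Reg genes were nearly silent, with 28 UMIs of Reg3b in maternal obesity and 11 in control, 1 and 0 of Reg1a, and 0 of Reg3a and Reg3g in both.

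Across 27 combinations of epithelial cluster and library, the level (log2 of CPM + 1) of Defa8 followed that of Defa9 most closely (Pearson r 0.97), and Defal1 (0.86) and Defa6 (0.75) followed Defa8 less so, with Defa24 at 0.52. The points share the libraries and their depths, and the r values are descriptions. Some points had most of their alpha-defensin UMIs in 1 cell, such as 282 of 285 in E3 in control. In E12 in maternal obesity these were 662 of 844. Among 9887 other genes, the summed alpha-defensins were most like Cldn15 (0.65), St3gal1 (0.62), Ppp3cc (0.61) and Igfbpl1 (0.55), then Cela1, Tor1a, Dxo and Hist1h2bo (0.54 to 0.52). Reg4 was most like Igfbpl1 (0.84), St3gal1 (0.81), Sct (0.74) and Olfm1 (0.69), then Hs2st1, Ccdc57, Tpst1 and Cpe (0.69 to 0.64). Alpha-defensins and Reg4 had r 0.60 with each other.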

How the data were processed

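The deposited files hold raw UMI counts per gene and cell barcode, made by the authors with Cell Ranger 2.1.1 per the submitters' processing notes, while the matrix headers name cellranger 6.1.2. The genome build, the annotation and the handling of reads that match several genes are not given in the sources used here. Identifiers that share a symbol were summed (30400 identifiers, 28116 symbols). Barcodes under 500 genes or above 20% mitochondrial UMIs were left out. Scrublet called 1.85% of maternal obesity and 0.872% of control barcodes as doublets, against 7.77% and 7.12% expected from loading, so few of the expected doublets were removed. Counts were scaled to 10000 per cell, and 2000 variable genes, 30 components, 15 neighbours and Leiden resolution 1 gave clusters (scanpy 1.11.5, igraph 0.11.9). Clusters were named from marker lists, which makes these names rebuilt and not the authors'. Intervals are exact: conditional binomial for a ratio of counts, Clopper-Pearson for a share (scipy 1.17.1). Only the ratio interval was checked on simulated data, in which UMIs were drawn independently. That check does not cover the clumping of UMIs in few cells seen here. UMIs were summed per library, and with 1 library per group no test was run. Gene lists count genes with at least 20 UMIs. Of 256 listed symbols 15, Muc2 among them, were not analysed here. The genes and lists were chosen with earlier results of these data known.

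Named genes were the 6 genes and their relatives, up to 3 genes per list by level, the 8 most alike in pattern, the 10 with the highest fold in the weaker library, and genes that check a cell type. Other names, such as Clca1, Zg16 and Klk1 within E1, were chosen after their values were seen. Alternatives changed the filters, clustering, doublet removal, depth and weighting.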

Additional observations from a re-analysis of the deposited data

Results flagged for a closer look

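Barcodes that the filters or the doublet call left out held 418 alpha-defensin UMIs in maternal obesity and 37 in control. They enter no comparison above, and were flagged because they lie outside the cells described. There are no empty-droplet or control samples to set them against.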

How the results depend on the processing

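Of the values that answer a comparison, 53 stayed within their limits under the alternatives, 44 moved and 2 changed sign. Of the single genes' values 42 stayed, 12 moved and 1 changed sign. The causes were not tested. The log2 ratio of maternal obesity over control was 1.52 for alpha-defensins and became 2.12 with thinned cells, 0.30 with clusters weighted equally and 1.35 without the cells of highest doublet score. For Reg4 it was 3.76 and became 4.94 with thinned cells, 2.27 with equal weights and 4.29 without the top cell. Equal weights include clusters with 0 Reg4 UMIs in both libraries, whose log2 ratios came from the 0.5 UMI added to each count. For alpha-defensins they include clusters with few UMIs and clusters with most UMIs in 1 cell. Defal1 changed sign with equal weights (-0.38). Thinning lowered the share of positive cells to 4.16% and 1.91% for alpha-defensins and 3.20% and 0.122% for Reg4, and leaving out high doublet scores gave 6.13% for Reg4 in maternal obesity.

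The share of UMIs in the cluster richest in alpha-defensins depended on the clustering. For alpha-defensins (62.2% in maternal obesity and 76.8% in control) it was 81.1% and 75.0% at resolution 0.5, 46.2% and 42.4% at resolution 2, 80.5% and 65.9% with at least 1000 genes, 69.3% and 66.5% with at most 10% mitochondrial UMIs, 80.7% and 89.7% with thinned cells, 90.1% and 69.6% with doublets kept, 94.5% and 96.2% with the genes kept in the clustering, 70.7% and 73.1% without the top cell, and 72.6% and 81.7% without high doublet scores. For Reg4 in maternal obesity (53.6%) these gave, in that order, 83.6%, 36.1%, 63.0%, 68.3%, 66.3%, 87.1%, 87.8%, 59.7% and 58.9%. For Reg4 in control (35.4%) resolution 2 gave 18.3%, thinning 50% and leaving out the top cell 56.9%.

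Against other cells of the same cluster, the median log2 in alpha-defensin cells was 0.11 in maternal obesity and -0.027 in control for goblet genes (1.57 and 0.12 against all others), -0.17 and -0.33 for Paneth genes (1.11 and -0.93), and -0.45 in control for enteroendocrine genes (-4.54). This contrast, the removal of high doublet scores and the values within a cluster without its top cell were chosen after seeing the data. No paired analysis was possible because each group has 1 library.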
